A study of Mus musculus with 6 samples.

Results

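The S100 calcium-binding proteins examined here are 9 mouse genes, S100a8, S100a9, S100a1, S100a4, S100a6, S100a10, S100a11, S100a13 and S100b, out of 15123 named genes on the array. A probe was taken for a gene when its symbol in the platform annotation equalled that of the gene, which gave 1 probe for each of the 9. The study compared the antrum, the part of the stomach before the pylorus, in KitK641E:Neo/K641E:Neo mice with the antrum of KitWT/WT littermates at postnatal day 14. The K641E change makes the receptor Kit active without its ligand. It is carried in the germline and hence in every cell, and by name the mutant alleles also keep a Neo cassette. Each of 3 littermate pairs was hybridised on 2 two-colour arrays with the dyes exchanged, so there are 6 arrays and the pair is the replicate (n = 3).

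S100 proteins are small proteins with EF-hand motifs that mostly work as dimers, change shape on binding calcium and then bind target proteins. S100a8 and S100a9 form calprotectin, the abundant cytosolic protein of neutrophils and monocytes, which binds zinc and manganese and, once released, can signal through Tlr4 and Ager, and which stressed squamous epithelium also makes. The other members act mainly inside cells, as partners of annexins, myosin or exported growth factors, or serve as markers of fibroblasts (S100a4) and glia (S100b).

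The values are log2 ratios of the mutant and wild-type channels of an array, and a value of 1 is a 2-fold difference if the deposited base is 2, which was inferred and not stated. The likely direction is mutant over wild type. As deposited, the 2 arrays of a pair correlated at -0.61, -0.74 and -0.83, which shows a ratio of dye channels, while red over green is an assumed order. With that order the means above 0 included Spry4 (1.38) and Tpbg (1.96), both reported as up-regulated in the title of the paper on this study. Between pairs, arrays of the same orientation correlated at -0.05 to 0.49. Ratios hold no absolute levels, so the amounts of different S100 transcripts were not compared. The pair means of Kit itself were -0.02, 1.89 and 0.81. In pair 3 the Y-linked gene Eif2s3y had -5.06, against -0.03 and -0.05 (-0.045 unrounded) in the other pairs, and Kdm5d, also Y-linked, had -1.95 in pair 3, against 0.22 and -0.15. A difference of sex within pair 3 was not tested, and in that pair it could not be told apart from genotype. In whole tissue, more cells of a type and more RNA per cell cannot be told apart.

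S100a8 and S100a9 lie next to each other on chromosome 3, with 0 annotated genes between them, and are read from opposite strands. The 250 bases upstream of each start are shown because these adjacent genes had the highest ratios of the 9 members. The sequences are from RefSeq (GRCm38.p6), 5′ to 3′ on the gene's own strand, and capitals mark the matches described after them. S100a8 has chr3:90668821-90669070 on the plus strand and S100a9 chr3:90695722-90695971 on the minus strand.
S100a8: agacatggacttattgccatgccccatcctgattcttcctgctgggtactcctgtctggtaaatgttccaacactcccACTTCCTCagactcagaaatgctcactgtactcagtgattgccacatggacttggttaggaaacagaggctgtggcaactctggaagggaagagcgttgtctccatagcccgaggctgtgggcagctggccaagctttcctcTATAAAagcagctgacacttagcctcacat
S100a9: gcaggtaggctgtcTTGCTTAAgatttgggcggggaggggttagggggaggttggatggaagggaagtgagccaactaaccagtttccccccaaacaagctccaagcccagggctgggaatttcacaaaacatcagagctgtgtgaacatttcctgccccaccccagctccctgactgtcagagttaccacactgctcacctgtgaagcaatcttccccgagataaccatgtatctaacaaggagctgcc

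Both strands were searched for 5 motifs. They were TTGCNNAA for C/EBP, TGA and TCA with any base between them for AP-1, TTCNNNGAA for STAT, GAGGAAGT for PU.1 and TATAAA for the TATA box, where N is any base. In S100a8 the search found TATAAA starting 30 bases before the start and, on the opposite strand, a PU.1 core whose match begins 172 bases before it. In S100a9 it found 1 C/EBP match, beginning 236 bases before the start, and no other motif of the 5. Among 32851 promoter windows of the same length, 12.4% held TATAAA, 2.44% the PU.1 core and 9.56% the C/EBP motif, while 6.75% held the AP-1 and 7.02% the STAT motif. No match overlapped another in these 2 windows. Promoter sequences were found for 8 of the 9 members, and among the other 6 only S100a4 (TATAAA) and S100a11 (2 AP-1 matches) held any of the 5 motifs.

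S100a8 rose in the mutant antrum. Its log2 ratio was 1.77 with the mutant in Cy5 and 1.66 with the mutant in Cy3 in pair 1, 1.67 and 1.80 in pair 2, and 1.555 and 1.82 in pair 3. All 6 arrays lay between 1.555 and 1.82, and the 3 pairs overlapped. The mean was 1.71 ± 0.04 (limma SE, n = 3), a 3.28-fold difference with 3.19 to 3.37 spanning 1 SE either way. The gene passed limma's test over all 30649 features with an adjusted p of 0.0414.

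The pair means of S100a8, 1.71, 1.74 and 1.69, had an SD of 0.02, below the SD of 0.13 between the 2 arrays of a pair. The SE over pairs may therefore understate its error. With any 1 pair left out the call was lost although the value stayed between 1.70 and 1.73. In those fits 0 of all features passed, so the loss was not particular to S100a8. The call was also lost with arrays scaled to a common spread (limma adjusted p 0.0543) and when probes were not averaged by gene (limma adjusted p 0.0642). Here, too, 0 of all features passed.

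S100a9, the partner subunit, was higher on every array but differed between pairs. It had 1.42 and 1.245 in pair 1, 2.54 and 2.025 in pair 2, and 2.12 and 1.85 in pair 3, again with the mutant in Cy5 given first. Pair 1 was the lowest and did not overlap with the other pairs. The mean of 1.87 ± 0.21 (limma SE, n = 3), a 3.64-fold difference with 3.16 to 4.21 spanning 1 SE, did not pass over all features (adjusted p 0.891, unadjusted rank 36 of 30649 by limma). When all 6 arrays were fitted and the pair was a random block, which lends all features 1 common correlation, S100a9 passed (limma adjusted p 0.0126, or 0.0367 with a dye term added after seeing the data). The 30649 features then gave 61 calls, or 15 with the dye term, against 2 in the fit on pair means. The common correlation was 0.33, or 0.50 with the dye term. S100a9 itself had an SD of 0.25 between the 2 arrays of a pair and of 0.49 over the pair means. Its SE in these fits may therefore be too small.

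**Figure D1:**
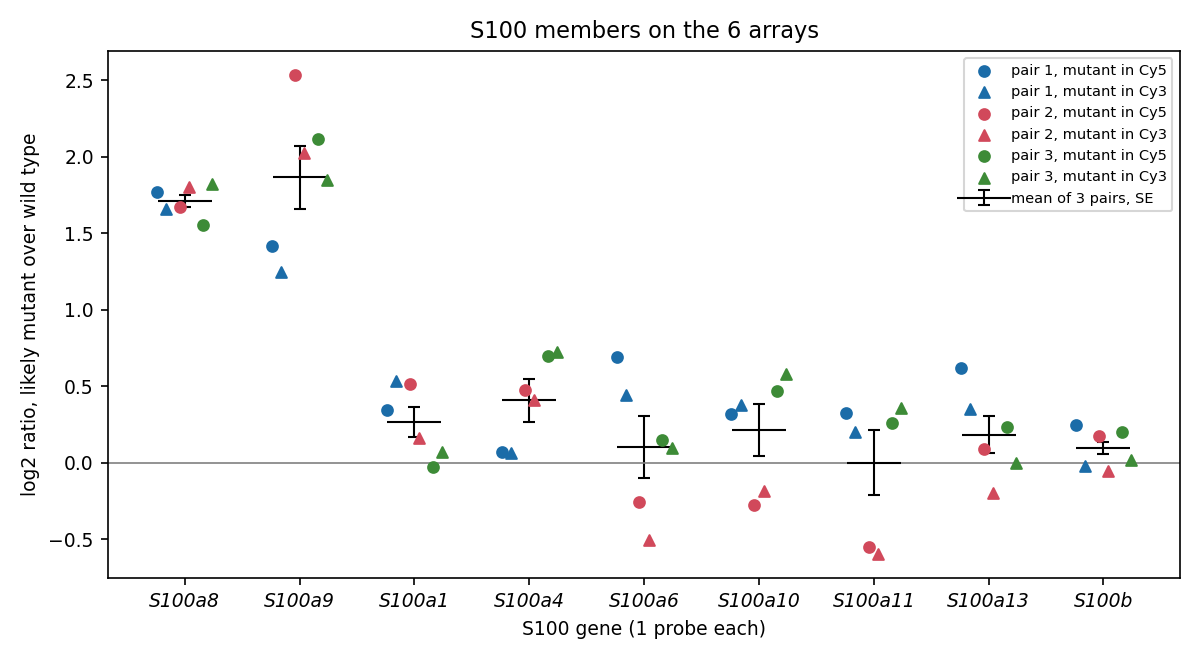
Log2 ratio (y axis, likely mutant over wild type) of the 9 S100 members (x axis, 1 probe each) on the 6 arrays. Colour gives the pair, circles are arrays with the mutant in Cy5, triangles arrays with the mutant in Cy3, and black bars the mean of 3 pairs with limma's SE. S100a8 lies between 1.555 and 1.82 on every array, S100a9 between 1.245 and 2.54, and the highest single value of the other 7 members is 0.73 (S100a4).

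The ratio of S100a9 minus that of S100a8 was -0.38, 0.54 and 0.295 in pairs 1 to 3. The mean difference of 0.15 was smaller than its SD of 0.48 over pairs. Among all 30649 features ordered from the highest ratio down, S100a8 stood at places 17, 124 and 98 in pairs 1 to 3, and S100a9 at 34, 64 and 62.

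At the adjusted threshold 1 of the 9 members was higher, S100a8, against 0.00653% of all features (2 of 30649, the other being Retnla, a secreted resistin-like protein, with 2.80 ± 0.06). None was lower, as was true of 0% of all features. At an unadjusted limma threshold of 0.05, 3 members were higher (S100a8, S100a9 and S100a4) against 2.74% of features, and 0 lower against 2.16%. The same 3 members were above 0 on all 6 arrays, against 3.87% of features, and 0 members were below 0 on all of them, against 3.45%. A log2 ratio of 1 or more on all 6 arrays was reached by S100a8 and S100a9, against 0.0261% of features (8 of 30649). The median ratio was 0.21 over the 9 members and 0.0035 over all features, and only S100a11 (-0.001) had a mean below 0.

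The calprotectin genes lay farther from 0 than the 7 other members. The mean of S100a8 and S100a9 was 1.52, 2.01 and 1.84 in pairs 1 to 3, against 0.33, -0.06 and 0.27 for the mean of the others. The difference was 1.20, 2.07 and 1.56, with a mean of 1.61 ± 0.44 (SD, n = 3). On each of the 6 arrays the lower of S100a8 and S100a9 exceeded the highest of the other 7, by 0.71 to 1.39. The grouping was made with earlier results of these data known, so this difference was described and not tested.

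**Figure D2:**
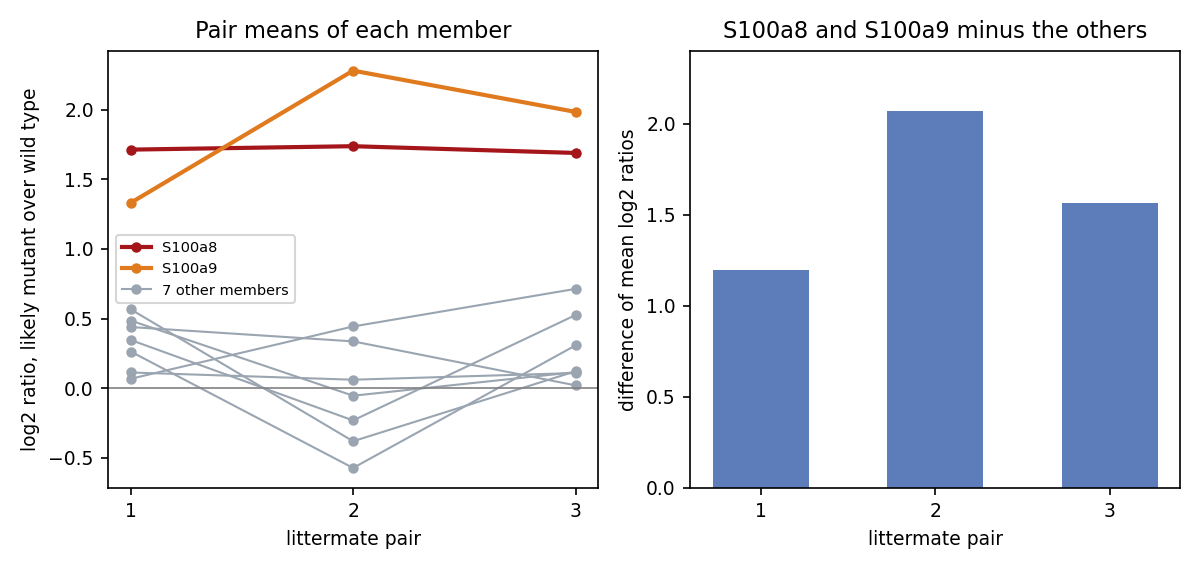
Left, the mean log2 ratio of each member in each pair (y axis, likely mutant over wild type; the mean of 2 arrays), with lines joining the values of 1 gene and no order among pairs. Right, the mean of S100a8 and S100a9 minus the mean of the other 7 members in each pair. The difference is 1.20, 2.07 and 1.56, and 4 of the 7 other members are below 0 in pair 2 alone.

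S100a4 had the highest ratio of the 7. The protein binds non-muscle myosin and marks fibroblasts and some leukocytes. It had 0.07 and 0.07 in pair 1, 0.47 and 0.41 in pair 2, and 0.70 and 0.73 in pair 3. The 3 pairs did not overlap, and the 2 arrays of a pair differed by 0.002 to 0.06. Its mean of 0.41 ± 0.14 did not pass (limma adjusted p 0.923). Myh9, the heavy chain of the non-muscle myosin it binds, had 0.20 ± 0.08.

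S100a1, known from heart and skeletal muscle, had 0.34 and 0.53 in pair 1, 0.51 and 0.16 in pair 2, and -0.03 and 0.07 in pair 3. Pair 3 was the lowest, near 0, and pairs 1 and 2 overlapped. The mean was 0.265 ± 0.10 (limma adjusted p 0.923).

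S100a6, S100a10 and S100a11 shared a pattern over the pairs: above 0 on both arrays of pairs 1 and 3, and below 0 on both arrays of pair 2. Outside the 9 members, S100a5, S100a7a and S100a14 had the same pattern. By pair means, S100a13, S100b, S100a3 and S100a16 were also lowest in pair 2. S100a6, or calcyclin, had 0.69 and 0.44 in pair 1, -0.26 and -0.505 in pair 2, and 0.15 and 0.09 in pair 3. S100a10, the subunit that pairs with annexin A2 and has lost calcium binding, had 0.315 and 0.38, -0.28 and -0.19, and 0.47 and 0.58 in pairs 1, 2 and 3. S100a11, which binds annexin A1, had 0.32 and 0.20, -0.55 and -0.60, and 0.26 and 0.36. Pair 2 was thus the low pair of S100a6, S100a10 and S100a11. Their means, 0.10 ± 0.20, 0.21 ± 0.17 and -0.001 ± 0.21, were each smaller than 2 SE and none passed (limma adjusted p 0.960, 0.923 and 0.9997).

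In S100a13 and S100b the 2 dye orientations differed by more than the size of the mean ratio. This was not particular to these genes. Among the members it also held for S100a6 (0.18 against 0.10) and S100a11 (0.02 against -0.001). Among the other S100 genes on the array it held for S100a14 (0.07 against -0.04) and S100a16 (0.13 against 0.004). In S100a6 and S100a16, too, the array with the mutant in Cy5 was the higher in every pair. S100a13, which helps export growth factors that lack a signal peptide, had 0.62 and 0.35 in pair 1, 0.09 and -0.20 in pair 2, and 0.23 and -0.003 in pair 3. The array with the mutant in Cy5 was the higher in every pair, by 0.26 on average, against a mean ratio of 0.18 ± 0.12. S100b, of enteric glia and Schwann cells, had 0.25 and -0.02, 0.17 and -0.05, and 0.20 and 0.02. Its pair means, 0.11, 0.06 and 0.11, were close to each other, and its mean of 0.09 ± 0.04 (limma adjusted p 0.923) was smaller than the 0.23 by which the dye orientations differed. The 4 measured markers of glia and Schwann cells had medians of -0.09, 0.29 and 0.02 in the 3 pairs. Their member with the lowest p, Mbp, a myelin protein, had -0.21 ± 0.08.

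A further 6 S100 genes were named on the array, and 0 of them passed (adjusted p at or above 0.923 by limma). Their means ran from -0.04 for S100a14 to 0.56 for S100g, with medians of 0.35, -0.09 and 0.48 in the 3 pairs. In pair 2 the ratio was below 0 in 6 of 6, and in pair 1 above 0 in 6 of 6. S100a7a, the psoriasin relative next to S100a8 and also known from inflamed skin, had pair means of 0.37, -0.065 and 0.93. S100a14, an epithelial member, had 0.33, -1.01 and 0.57, and S100a16 had 0.02, -0.42 and 0.41. S100a3 and S100a5 had 0.43, -0.10 and 0.36, and 0.28, -0.03 and 0.54. S100g, the vitamin D-dependent calcium carrier calbindin-D9k of intestine, had 1.80 and 1.99 on the arrays of pair 1, while all 4 arrays of pairs 2 and 3 were between -0.18 and -0.05.

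Of the 13 measured S100 genes of chromosome 3, taken in genome order, all other genes had lower ratios than S100a8 and S100a9 in each pair. The gene before S100a8 is S100a7a, with 0.37, -0.065 and 0.93 in the 3 pairs beside 1.71, 1.74 and 1.69 for S100a8. After S100a9 the next measured S100 genes are S100a11 and S100a10, across many other genes. In pair 2, 9 of the 13 were below 0 while S100a8 and S100a9 were at 1.74 and 2.28.

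**Figure D3:**
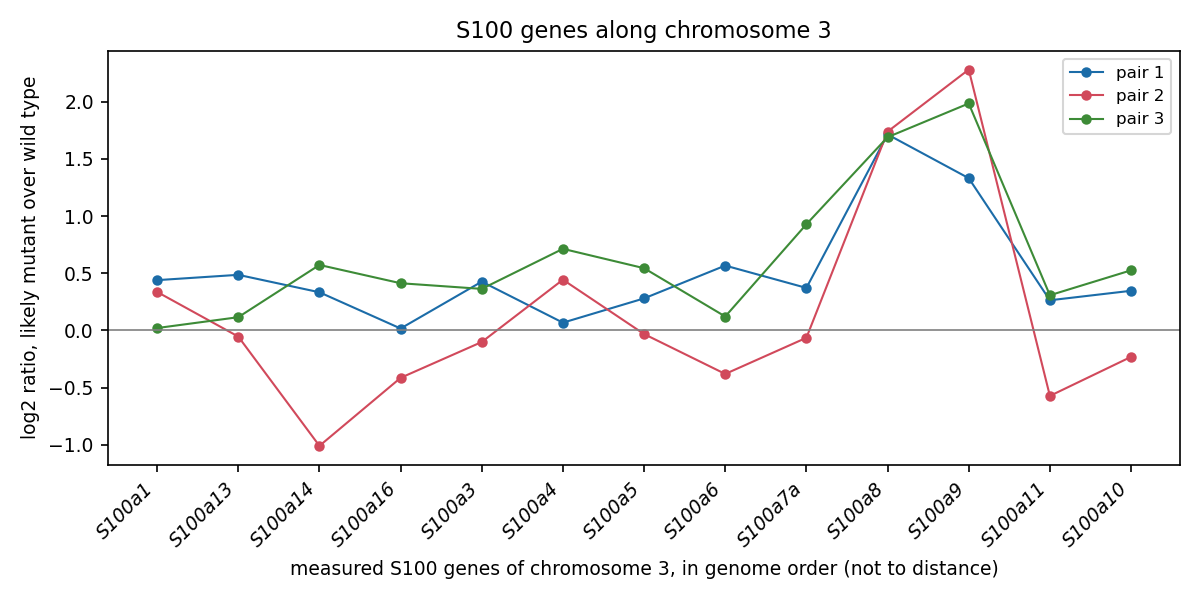
Mean log2 ratio per pair (y axis, likely mutant over wild type) of the 13 measured S100 genes of chromosome 3 in genome order (x axis, not to distance). Lines join the values of 1 pair. S100a8 and S100a9 stand above the other 11 genes in each pair, while S100a14 is the lowest in pair 2 at -1.01.

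Patterns over the 6 arrays were compared by the root mean square difference of log2 ratios, over all 15123 named genes. The ratios were not centred, so the difference measures level as well as course over the arrays. Genes of like level can be near without varying alike, and S100a8 and S100a9 both had high ratios. The gene nearest to S100a8 was S100a9, at 0.48, followed by Enpep, an aminopeptidase, at 0.50, the fatty acid binding protein gene Fabp4 at 0.57, the stearoyl-CoA desaturase gene Scd1 at 0.61 and Fabp1 at 0.63. Nearest to S100a9 were Enpep at 0.25, Fibin at 0.43, the bile acid receptor gene Gpbar1 at 0.43, the phosphodiesterase gene Pde3a at 0.46 and Qrfprl at 0.48, and S100a8 came at place 7. None of these genes passed the test other than S100a8 itself.

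Of 19 measured receptors and binding partners of S100 proteins, 0 passed. Their median was 0.09 with 15 above 0, beside a median of 0.0035 over all features. Cd14, a co-receptor of Tlr4, had 0.30 ± 0.10 and was above 0 on 6 of 6 arrays. Tlr4 and Ager, the receptors themselves, had 0.02 and 0.04, and these were named after their values were seen. Plat, the tissue plasminogen activator whose product S100a10 helps to form, averaged 0.99 ± 0.33, with 0.085 in pair 1 and 1.41 and 1.48 in the others. Sugt1, a target of S100a6, had 0.12 ± 0.05.

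Neutrophil markers other than calprotectin had mean ratios below those of S100a8 and S100a9. The 20 measured genes had medians of 0.05, 0.06 and 0.10 in pairs 1, 2 and 3, with 15 of 20 above 0 on average, 3 higher and 0 lower at an unadjusted limma threshold of 0.05 (against 2.74% and 2.16% of all features), and 0 past the adjusted one. Further genes of the list were chosen after their values were seen. The granule genes Elane, Mpo and Ctsg had means of -0.04, 0.02 and 0.04, and the receptor genes Csf3r and Cxcr2 -0.01 and 0.04. The granule genes Lcn2, Ltf, Camp and Ngp had higher means, 0.59 ± 0.24, 0.52 ± 0.31, 0.20 ± 0.14 and 0.17 ± 0.14, with Lcn2 above 0 on 6 of 6 arrays. By lowest p the first were Retnlg with 0.37 ± 0.07, Stfa3 with 0.66 ± 0.21, Mmp9 with 0.34 ± 0.11 and Cd177 with 0.19 ± 0.07, each above 0 on 6 of 6 arrays. The range over the list was -0.26 to 0.66. Spot intensities were not used, so a ratio near 0 cannot be told apart from a signal too weak to measure. The part of neutrophils in the S100a8 and S100a9 ratios was not tested.

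The 11 monocyte and macrophage markers had pair medians of -0.20, 0.26 and 0.24. Their means ran from -0.41 to 0.62, and their ratios in pair 1 from -1.11 to 0.40. Ccr2, the chemokine receptor of inflammatory monocytes, had the lowest p of the list. It averaged 0.44 ± 0.05 over pair means of 0.40, 0.52 and 0.41 (limma adjusted p 0.891). The part of these cells in the S100a8 and S100a9 ratios was not tested.

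The median of the squamous epithelium markers was lowest in pair 2, as were S100a6, S100a10 and S100a11. Single markers differed in which of pairs 1 and 3 was the higher. Pair 2 also held the lowest median of the gastric epithelium list (0.19, -0.07 and -0.01 in pairs 1 to 3). The same held for the cytokine (0.03, -0.06 and 0.19), regulator (0.01, -0.002 and 0.30) and S100-fused (0.07, -0.08 and 0.95) lists. The antrum is glandular, and the squamous forestomach lies apart from it. The 16 measured squamous markers had pair medians of 0.81, -0.09 and 1.13. All 16 had means above 0 and 0 passed. Krt14, a basal keratin, had 1.61, -0.15 and 2.29 in the 3 pairs, Krt6a 1.39, 0.04 and 0.88, Krt6b 1.28, 0.05 and 1.17, and the basal cell factor Trp63 0.98, -0.06 and 0.59. In pair 2, where the squamous median was at -0.09 and single markers ran from -1.54 to 0.78, S100a8 had 1.74 and S100a9 2.28. Among the 3 measured genes of the S100-fused type, from the same chromosome region, Rptn had 1.06, -0.09 and 3.22, while Hrnr and Tchhl1 had means of 0.26 and 0.02. The part of squamous tissue in the ratios of S100a8, S100a9 and the other S100 genes was not tested.

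**Figure D4:**
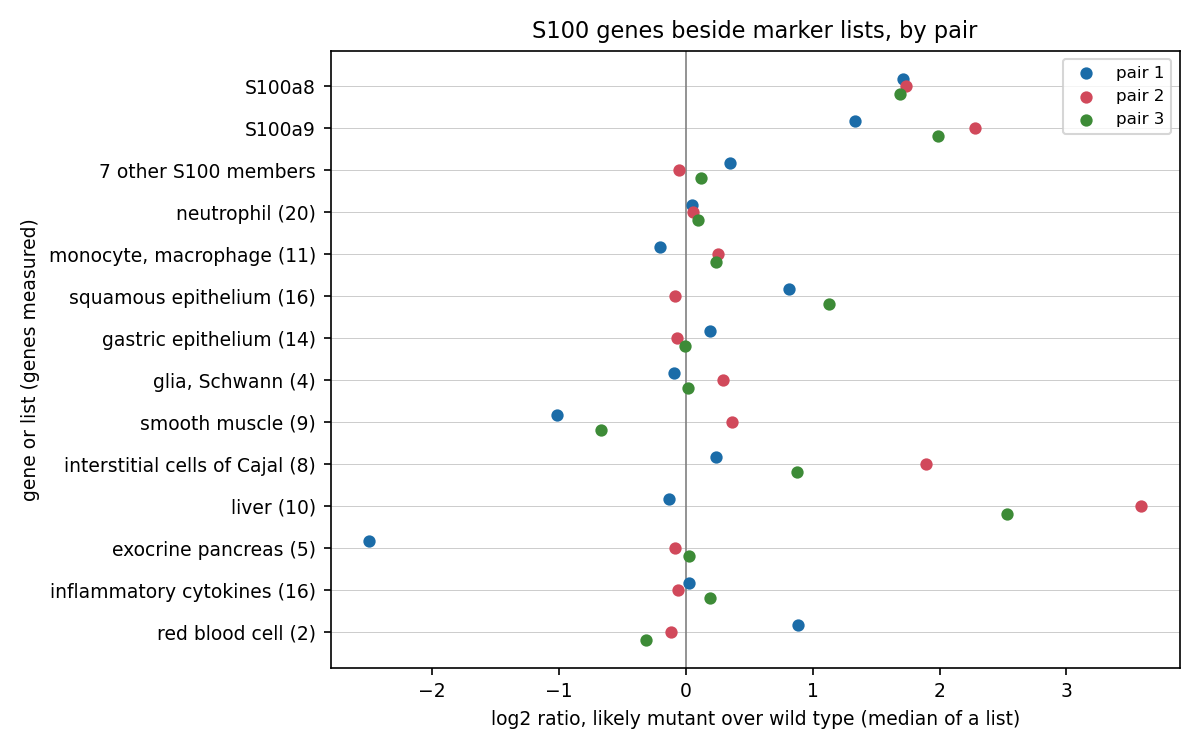
Log2 ratio (x axis, likely mutant over wild type) of S100a8, S100a9, the median of the 7 other members and the medians of marker lists (y axis, number of measured genes in parentheses), 1 point for each pair. S100a8 and S100a9 are above 1.3 in each pair, while the neutrophil medians lie between 0.05 and 0.10, and the squamous, liver and pancreas lists differ between pairs.

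Cytokines that accompany calprotectin in inflammation had a median of 0.01 over 16 genes, with 0 past the threshold. Cxcl5, a neutrophil attractant, had 0.98 ± 0.32, with 0.94, 0.25 and 1.76 in the 3 pairs. The chemokine genes Ccl2, Ccl3 and Ccl4 had 0.41 ± 0.28, -0.34 ± 0.20 and -0.37 ± 0.19. Of 8 factors known as regulators of S100a8 and S100a9, 0 passed, and their median was 0.09. Hif1a had 0.33 ± 0.11 and Cebpa 0.21 ± 0.07, each above 0 on 6 of 6 arrays, against 0.07 ± 0.06 for Cebpd and -0.17 ± 0.14 for Klf4.

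Marker lists of other tissues and cells also differed between pairs, and pair medians are given in the order 1, 2 and 3. They were -0.13, 3.59 and 2.53 for 10 liver genes (Apoa2 mean 2.58), -2.49, -0.08 and 0.02 for 5 genes of the exocrine pancreas (Cel mean -0.86), and 0.88, -0.12 and -0.31 for 2 red blood cell genes (Hba-a1 mean 0.22). Smooth muscle (9 genes, Lmod1 mean -0.40) had -1.01, 0.36 and -0.665, gastric epithelium (14 genes, Pga5 mean 0.66) 0.19, -0.07 and -0.01, and interstitial cells of Cajal (8 genes, Prkcq mean 2.42) 0.235, 1.89 and 0.875. S100a8 had 1.71, 1.74 and 1.69 in the same pairs, whereas S100a9 was lowest in pair 1 and highest in pair 2. So were the medians of the interstitial cell, liver, smooth muscle, glia, and monocyte and macrophage lists. Within the interstitial cell list the means ran from -0.11 to 2.42. The lowest was that of Ano1, with -0.07, -0.17 and -0.08 in pairs 1, 2 and 3. The part of the listed tissues and cells in the S100 ratios was not tested.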

How the data were processed

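Per the labels' protocols, antrum RNA was amplified to aminoallyl-labelled antisense RNA, which took up 1 of the dyes Cy5 and Cy3, and went onto mouse arrays with 70-base probes. The authors deposited log2 ratios for 38467 probes on 6 arrays, with array medians between -0.003 and 0.004. Base 2 is inferred from the values, while the sources used here do not name the scanner, background correction or normalization. Spot intensities were not used, so no member was filtered on brightness and all 9 were tested. The number of arrays limits the precision.

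The sign of arrays with the mutant in Cy3 was turned, probes of a gene were averaged, and the 2 arrays of a pair were averaged. The 3 pair means were tested against 0 over 30649 features (15123 named genes and the unnamed probes) with lmFit and eBayes of limma 3.58.1 in R 4.3.3, two-sided, with Benjamini-Hochberg adjustment at 0.05, and the test was checked on simulated data. An exact sign-flip test of 3 pairs cannot go below 0.25. Symbols come from the platform annotation, in which 22941 probes have 1 gene, 0 have several and 15526 have none. RefSeq (GRCm38.p6) held the identifier of each of the 22941 and changed 0 symbols.

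The members and lists were chosen with earlier results of these data known, and p-values were adjusted over all features. Named genes are the S100 genes, the 4 with the lowest p of the S100-related, neutrophil, squamous, cytokine and regulator lists, the 1 with the lowest p of each other list, the 5 nearest patterns to S100a8 and to S100a9, and Kit, Spry4, Tpbg, Retnla, Eif2s3y and Kdm5d as checks. Outside this rule, Tlr4, Ager, Elane, Mpo, Ctsg, Csf3r, Cxcr2, Lcn2, Ltf, Camp and Ngp were named after their values were seen. So were Ano1, Chil3 and the annexins. Lists are described by counts and medians. The share of all features with a mean above 0 was not computed, and their median was 0.0035. Alternatives changed the centring, scaling, probe summary, dye orientation, replicate unit, variance prior, features tested, logarithm base and pairs. Probe sequences were not used here, so cross-hybridisation between S100 genes was not tested.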

Additional observations from a re-analysis of the deposited data

How the results depend on the processing

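The count of members past the threshold was 1 in the fit reported and with arrays centred on their median, median over probes, a robust variance prior or named genes only. It was 0 with arrays scaled to a common spread, each probe on its own, 1 dye orientation only or any 1 pair left out (range 0 to 0), and 2 with the 6 arrays fitted as independent or with the pair as a random block, with or without a dye term (the dye term was chosen after seeing the data). Over all features these last 3 fits called 108, 61 and 15, against 2. The fits in which 0 members passed called 0 of all features, except for 1 with the mutant in Cy3 only. S100a8 had 1.73 with arrays scaled (adjusted p 0.0543), 1.71 with each probe on its own (0.0642), 1.67 (1.665 unrounded) with the mutant in Cy5 only (0.219), 1.76 with the mutant in Cy3 only (0.0643), and 1.70 to 1.73 with a pair left out (0.378 to 0.9999), none past the threshold by limma. Over the 6 alternatives that keep both arrays of all 3 pairs averaged, its adjusted p ran from 0.0378 to 0.0642. S100a9 had 1.87 (1.8655 unrounded) and passed only in the random block fit (adjusted p 0.0126), the same with a dye term (0.0367) and the independent fit (0.00873), all by limma. Read as natural logarithms, the folds of S100a8 and S100a9 would be 5.55 and 6.46 in place of 3.28 and 3.64. The difference between these genes and the other members ran from 1.38 to 1.82 over its 9 alternatives, all within 1 SD of the value reported.

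The sign of 6 S100 genes changed under some alternatives. S100a11 had 0.0103 with the mutant in Cy5 only and -0.16 to 0.285 with a pair left out, S100b -0.0193 with the mutant in Cy3 only, and S100a16 -0.062 there, -0.0036 with arrays scaled, and -0.20 to 0.21 with a pair left out. With a pair left out, S100a6 ran from -0.13 to 0.34, S100a14 from -0.34 to 0.45 and S100g, whose mean of 0.56 rests on pair 1, from -0.11 to 0.91. None of these passed in any of the fits.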

Other observations

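The annexins differed among themselves over the pairs, and these genes were chosen after their values were seen. Anxa1, the partner of S100a11, had 0.52, -0.53 and 0.42 in pairs 1, 2 and 3, beside 0.26, -0.57 and 0.31 for S100a11. Anxa2, the partner of S100a10, had 0.08, -0.60 and 0.38, beside 0.35, -0.23 and 0.525 for S100a10. Anxa11 had the same signs, with 0.33, -0.19 and 0.02. Anxa5, with -0.12, 0.23 and 0.525, and Anxa6, with -0.49, 0.68 and 0.13, had the opposite signs in pairs 1 and 2. None of these genes passed over all features by limma.

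Chil3, a chitinase-like protein of neutrophils and of macrophages, had the widest spread of the 20 neutrophil markers, with pair means of 3.33, -2.36 and -1.76. Its 2 probes were averaged. The ratio thus had opposite signs in pairs in which S100a8 had 1.71, 1.74 and 1.69. The cause was not tested.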
